A study of Homo sapiens with 12 samples.

Results

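The nectin adhesion genes are NECTIN1, NECTIN2, NECTIN3 and NECTIN4, together with AFDN, which encodes afadin, the cytoplasmic partner of the nectins. They were taken by gene name and make up 5 of the 58735 genes in the deposited expression table. The family was chosen by measured values: NECTIN4 led the rises after CDCA7 knockdown in earlier results of these FPKM. For that reason the values of the 5 genes in that contrast, and in any difference built on it, are a description: no p-value is given for them, and nothing is read from how many passed a threshold.

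RNA was sequenced from KYSE180 and KYSE150, established human oesophageal squamous cell carcinoma lines, with 3 libraries in each of 4 groups. The groups were KYSE180 cells overexpressing CDCA7, KYSE180 native control cells, KYSE150 cells carrying a short hairpin RNA against CDCA7 (shCDCA7), and KYSE150 native control cells. CDCA7 is a nuclear zinc-finger protein and the partner of HELLS, a chromatin remodeller. All groups grew in the same serum-containing medium and were detached with trypsin before RNA extraction, and the control cells were labelled native and wild type. The labels do not give the vector, the hairpin sequence or whether a derivative was a clone or a pool, and no empty-vector or scrambled-hairpin library was analysed here.

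Nectins are membrane proteins with immunoglobulin-like domains that bind nectins on a neighbouring cell, either their own kind or another member, without needing calcium. Their cytoplasmic tails bind afadin, which links them to actin and helps to bring cadherins and catenins to the adherens junction. In stratified squamous epithelium these contacts hold keratinocytes together. Nectin-1 is also an entry receptor for herpes simplex virus, nectin-2 is a ligand of the lymphocyte receptors PVRIG, TIGIT and CD226, nectin-3 is a strong trans partner of nectin-1, and nectin-4 is the epithelial receptor of measles virus and the target of the antibody-drug conjugate enfortumab vedotin.

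On GRCh38, as matched by identifier, start and end to GENCODE 29, NECTIN1 (ENSG00000110400) lies on the minus strand of chromosome 11, from 119623408 to 119729084. NECTIN2 (ENSG00000130202) lies on the plus strand of chromosome 19, from 44846175 to 44889228. NECTIN3 (ENSG00000177707) lies on the plus strand of chromosome 3, from 111070071 to 111275563. NECTIN4 (ENSG00000143217) lies on the minus strand of chromosome 1, from 161070995 to 161089599. AFDN (ENSG00000130396) lies on the plus strand of chromosome 6, from 167826922 to 167972023. All 5 are protein coding and stand on 5 different chromosomes. Exons of an antisense gene overlap NECTIN1 by 148 bases (AP003393.1, 0 to 9 reads per library) and NECTIN2 by 128 bases (AC011481.2, 0 to 4 reads per library). Whether reads were counted by strand is not known here.

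Promoter windows of 300 bases, 250 before and 50 after the annotated start, are in RefSeq's table for GRCh38.p14 for 4 of the 5 genes, NECTIN1 being the other. The windows of NECTIN3, NECTIN4 and AFDN are shown because NECTIN3 had no read in KYSE150 and NECTIN4 and AFDN differed most between shCDCA7 and control cells. In the NECTIN3 window (chr3:111071566-111071865, plus strand) the capitals mark CG dinucleotides. In the windows of NECTIN4 (chr1:161089509-161089808, minus strand) and AFDN (chr6:167827385-167827684, plus strand) the capitals mark CACCTG, the E-box bound by the SNAI and ZEB repressors of epithelial genes, searched as CACCTG and as CAGGTG for the other strand.
NECTIN3: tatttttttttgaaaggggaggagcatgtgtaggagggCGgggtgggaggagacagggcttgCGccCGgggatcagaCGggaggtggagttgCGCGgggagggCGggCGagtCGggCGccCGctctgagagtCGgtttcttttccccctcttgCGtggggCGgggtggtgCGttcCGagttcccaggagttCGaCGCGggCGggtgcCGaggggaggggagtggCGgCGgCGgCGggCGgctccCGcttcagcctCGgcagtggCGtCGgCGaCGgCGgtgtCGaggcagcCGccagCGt
NECTIN4: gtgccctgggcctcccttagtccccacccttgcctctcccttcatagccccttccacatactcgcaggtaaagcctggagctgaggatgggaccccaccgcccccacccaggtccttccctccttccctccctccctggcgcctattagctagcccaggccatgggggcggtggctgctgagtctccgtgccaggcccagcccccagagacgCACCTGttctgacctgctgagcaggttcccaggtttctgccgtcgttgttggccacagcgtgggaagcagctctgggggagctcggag
AFDN: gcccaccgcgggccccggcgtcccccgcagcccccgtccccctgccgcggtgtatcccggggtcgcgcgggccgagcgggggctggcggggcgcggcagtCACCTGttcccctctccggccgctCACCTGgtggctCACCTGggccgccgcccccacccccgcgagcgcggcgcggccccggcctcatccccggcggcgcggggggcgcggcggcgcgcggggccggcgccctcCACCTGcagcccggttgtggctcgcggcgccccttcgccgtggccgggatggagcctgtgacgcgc
The NECTIN3 window held 36 CG dinucleotides and no E-box. As many or more CG were found in 12.7% of the 35116 promoters in the table, whose median was 14. The NECTIN4 window held 10 CG and 1 E-box, and 20.6% of promoters held at least 1. The AFDN window held 49 CG, reached by 1.60% of promoters, and 4 E-boxes, reached by 0.168%. The NECTIN2 window, not printed, held 26 CG and no E-box. These are letters in a window and say nothing of binding or methylation in these cells.

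Values are deposited FPKM, fragments scaled by gene length and by an effective library size. The whole reads behind them could be recovered, with totals of 16.3 M to 19.6 M a library. CDCA7 stood at 44.6, 59.1 and 57.9 FPKM in overexpressing KYSE180 cells, against 24.0, 18.2 and 17.4 FPKM in KYSE180 controls. It stood at 9.24, 10.1 and 8.83 FPKM in shCDCA7 cells, against 27.4, 25.6 and 25.6 FPKM in KYSE150 controls. Both shifts followed the labels, with log2 differences of 1.40 (limma-trend adjusted p = 0.00947) and -1.39 (limma-trend adjusted p = 0.00166). All 7 squamous markers (TP63, KRT5, KRT14, KRT6A, KRT17, DSG3 and SFN) exceeded 1 FPKM in every library, and their summed level was 735 to 920 FPKM in shCDCA7 cells, against 595 to 628 FPKM in KYSE150 controls. In KYSE180 it was 4062 to 4859 FPKM in overexpressing cells, against 1754 to 3923 FPKM in controls. The part of these shifts in the results below was not tested. All 3 markers of simple epithelium also exceeded 1 FPKM in every library. In no group did a marker of leukocytes or endothelium exceed 1 FPKM in all 3 libraries, and among 8 fibroblast markers COL1A1 alone did so, in KYSE180. One shCDCA7 library, replicate 2, stood apart: mitochondrial reads made up 11.2% of it, against 5.20% and 5.73% in shCDCA7 replicates 1 and 3 and 4.03% to 4.15% in KYSE150 controls. Its correlation with the other shCDCA7 libraries across genes was 0.962 and 0.964, against 0.996 between those. The KYSE180 controls also differed among themselves, with correlations of 0.967, 0.977 and 0.982, against 0.985, 0.990 and 0.993 among overexpressing libraries. In KYSE180, mitochondrial reads made up 7.97%, 8.56% and 8.65% in overexpressing cells, against 4.76%, 5.20% and 6.38% in controls. Those KYSE180 groups did not overlap. The part of the mitochondrial share in the results of either line was not tested. Values without shCDCA7 replicate 2 are given beside some of the results it moves, not all. In bulk RNA, fewer cells of a kind and less RNA per cell cannot be told apart. The labels do not say that replicates were separate cultures, so p-values measure the spread between these libraries, which may be technical.

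By FPKM, NECTIN1 was the most abundant nectin in KYSE180 and in KYSE150 controls, and NECTIN2 was the most abundant in shCDCA7 cells. NECTIN1 measured 93.7, 100.03 and 105.5 FPKM in overexpressing KYSE180 cells, against 99.5, 93.7 and 79.2 FPKM in KYSE180 controls. It measured 23.3, 21.9 and 26.1 FPKM in shCDCA7 cells, against 27.0, 28.4 and 26.6 FPKM in KYSE150 controls. The KYSE180 groups overlapped, while each shCDCA7 library lay below each KYSE150 control, the closest by 26.1 against 26.6 FPKM.

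NECTIN2 measured 39.0, 32.1 and 36.1 FPKM in overexpressing KYSE180 cells, against 28.9, 22.9 and 32.3 FPKM in KYSE180 controls. It measured 38.0, 24.0 and 35.5 FPKM in shCDCA7 cells, against 19.998, 22.2 and 19.8 FPKM in KYSE150 controls. The KYSE180 groups overlapped at their edges, and the shCDCA7 libraries lay above the KYSE150 controls, replicate 2 by the least.

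NECTIN3 was read in KYSE180 only. It measured 1.30, 1.54 and 2.05 FPKM in overexpressing cells, from 534 reads in all, against 1.33, 1.46 and 1.47 FPKM in KYSE180 controls, from 488 reads. All 6 KYSE150 libraries, shCDCA7 and control, had 0 reads, where 3 reads would have been 0.0227 to 0.0355 FPKM. Against a floor of 3 reads per library in the KYSE150 controls, the mean level was at least 59.2-fold higher in KYSE180 controls. These floors cover counting error only.

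NECTIN4 measured 9.98, 6.66 and 9.73 FPKM in overexpressing KYSE180 cells, against 8.23, 4.43 and 5.71 FPKM in KYSE180 controls. It measured 17.4, 7.35 and 17.8 FPKM in shCDCA7 cells, against 2.72, 3.06 and 2.44 FPKM in KYSE150 controls. The KYSE180 groups overlapped. In KYSE150 the groups stood apart, and shCDCA7 replicate 2 had less than the other shCDCA7 libraries but more than every control. The NECTIN4 values rest on 171 to 1096 reads per library.

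AFDN measured 4.94, 6.91 and 6.81 FPKM in overexpressing KYSE180 cells, against 6.48, 6.38 and 7.01 FPKM in KYSE180 controls. It measured 15.9, 22.3 and 16.96 FPKM in shCDCA7 cells, against 11.1, 11.3 and 10.8 FPKM in KYSE150 controls. The shCDCA7 libraries all lay above the KYSE150 controls, and replicate 2, which was lowest of its group for NECTIN1, NECTIN2 and NECTIN4, was highest for AFDN.

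**Figure D1:**
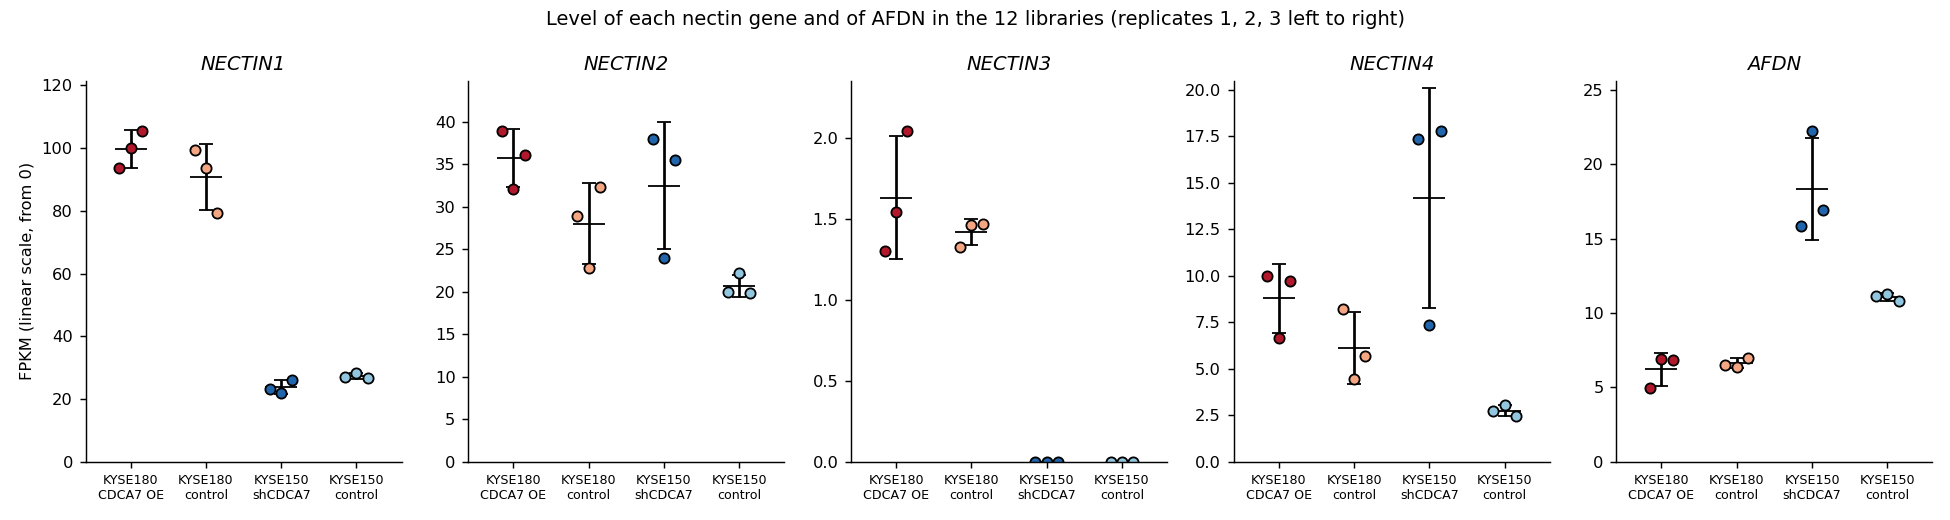
FPKM of the 5 genes in each library, by group; points are libraries, short horizontal lines are group means and vertical bars are SD (n = 3). NECTIN4 lies between 7.35 and 17.8 FPKM in shCDCA7 cells, above all KYSE150 controls, and NECTIN3 is at 0 in all 6 KYSE150 libraries.

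The knockdown contrast in KYSE150 sets shCDCA7 cells against native controls, so lowered CDCA7 cannot be told apart from carrying a hairpin. NECTIN4 averaged 14.2 ± 5.92 FPKM in shCDCA7 cells and 2.74 ± 0.307 FPKM in KYSE150 controls (SD, n = 3 each), a ratio of means of 5.17. Its log2 difference was 1.93 (SE 0.32) on the log2(FPKM + 1) scale, and without shCDCA7 replicate 2 it was 2.32, with a ratio of 6.42. AFDN averaged 18.4 ± 3.42 FPKM in shCDCA7 cells and 11.1 ± 0.255 FPKM in KYSE150 controls, a log2 difference of 0.67 (SE 0.14), and 0.53 without that library.

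NECTIN2 averaged 32.5 ± 7.44 FPKM in shCDCA7 cells and 20.7 ± 1.33 FPKM in KYSE150 controls, a log2 difference of 0.60 (SE 0.18), and 0.80 without shCDCA7 replicate 2. NECTIN1 averaged 23.8 ± 2.14 FPKM in shCDCA7 cells and 27.3 ± 0.931 FPKM in KYSE150 controls, a log2 difference of -0.20 (SE 0.09), and -0.14 without it. On these means NECTIN2 and NECTIN4 stood higher in shCDCA7 cells, NECTIN1 stood lower, and NECTIN3 had no reads on either side. An adjusted p under 0.05 in limma-trend (a call) was reached by 19.9% of all 14342 genes, 10.0% higher and 9.86% lower, and by 2 of the 4 nectin and afadin genes with reads, NECTIN4 and AFDN. The groups did not overlap for any of the 4, which was so for 47.8% of all genes. These counts are no support, since the family was chosen from this contrast.

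Across all genes the log2 difference correlated with GC content at -0.37, and at -0.12 without shCDCA7 replicate 2. The 5 genes span 38.9% GC in NECTIN3, 46.2% in AFDN, 55.5% in NECTIN4, 59.4% in NECTIN2 and 60.4% in NECTIN1. With each library's GC trend removed the log2 differences were 2.03 for NECTIN4, 0.77 for NECTIN2, 0.61 for AFDN and -0.01 for NECTIN1.

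**Figure D2:**
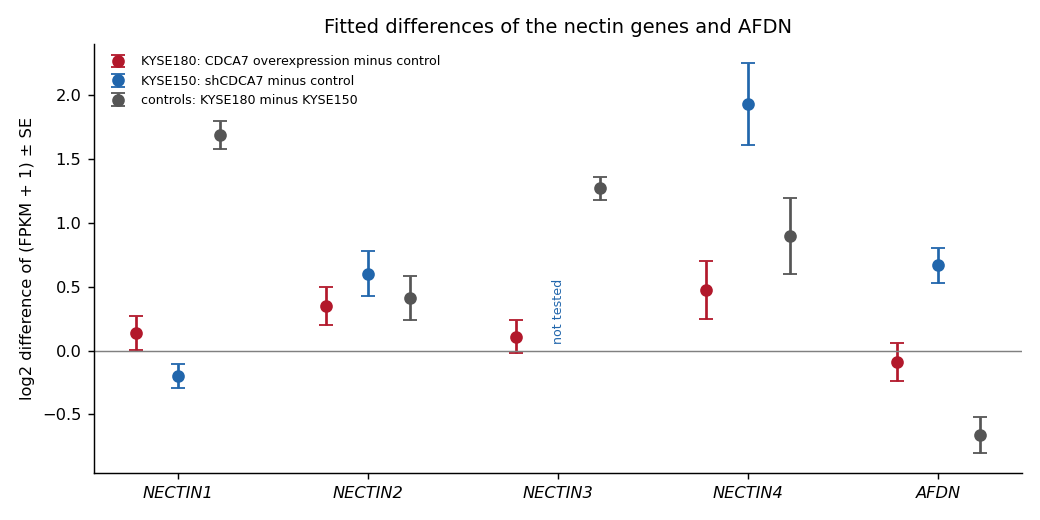
Log2 difference of each gene on the log2(FPKM + 1) scale, for CDCA7 overexpression minus control in KYSE180, shCDCA7 minus control in KYSE150, and KYSE180 minus KYSE150 controls; bars are standard errors. NECTIN4 in KYSE150 lies at 1.93, and NECTIN3 has no value there because it had no reads. The NECTIN3 point between controls depends on the added 1 and is no measure of the fold.

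The overexpression contrast in KYSE180 also has native controls, so raised CDCA7 cannot be told apart from how the overexpressing cells were made. None of the 5 genes passed the test, and their groups all overlapped, where 35.1% of all genes had groups that did not. NECTIN4 averaged 8.79 ± 1.85 FPKM in overexpressing cells and 6.12 ± 1.93 FPKM in KYSE180 controls (SD, n = 3 each), a log2 difference of 0.48 (SE 0.23, limma-trend adjusted p = 0.202). NECTIN2 averaged 35.7 ± 3.43 FPKM in overexpressing cells and 28.03 ± 4.80 FPKM in KYSE180 controls, a log2 difference of 0.35 (SE 0.15, limma-trend adjusted p = 0.169). The log2 differences of NECTIN1 (0.14, SE 0.14), NECTIN3 (0.11, SE 0.13) and AFDN (-0.09, SE 0.15) had limma-trend adjusted p of 0.527, 0.615 and 0.723. Over all 15944 genes tested, 9.08% passed, 4.65% higher and 4.43% lower. No member had an unadjusted p under 0.05 in limma-trend, where 4777 of all 15944 genes did. Limma-voom on the recovered reads called 0 of the 5 and 1831 of all 15944 genes. An unadjusted p under 0.05 in limma-voom was reached by 2 of the 5 and by 4825 of all genes. The median log2 difference was 0.14 over the 5 genes and -0.00 over all genes.

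Whether the manipulations shifted the genes differently was taken from a fit of all 12 libraries, as the overexpression difference minus the knockdown difference. It was -1.46 (SE 0.42) for NECTIN4, -0.76 (SE 0.20) for AFDN, -0.25 for NECTIN2 and 0.33 for NECTIN1. NECTIN3 has no such difference, having no reads in KYSE150. Of all genes, 5.57% were called in that fit (2.87% higher, 2.7% lower). No test of the nectin and afadin genes is given here, since the difference holds the contrast they were chosen from. NECTIN2 and NECTIN4 averaged higher in the manipulated cells of both lines, with CDCA7 raised in KYSE180 and lowered in KYSE150. In KYSE180 the groups of both genes overlapped and neither was called. The cause of these differences was not tested.

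Of the 4 genes read in both lines, 2 were higher and 1 lower in KYSE180 controls than in KYSE150 controls, where 58.0% of all 17088 genes tested passed, 33.4% higher and 24.6% lower. The control groups did not overlap for any of the 4, which was so for 71.3% of all genes. The KYSE150 controls are also the baseline of the contrast that the family was chosen from. The tests of the 4 genes here are therefore not independent of that choice, least of all for NECTIN4. NECTIN1 averaged 90.8 ± 10.4 FPKM in KYSE180 controls and 27.3 ± 0.931 FPKM in KYSE150 controls (SD, n = 3 each), 3.32-fold higher, with a log2 difference of 1.69 (SE 0.11, limma-trend adjusted p = 1.35e-07). NECTIN3, which entered the fit through KYSE180 alone, is given by the lower bound above and not by a test. NECTIN4 averaged 6.12 ± 1.93 FPKM in KYSE180 controls and 2.74 ± 0.307 FPKM in KYSE150 controls, a log2 difference of 0.90 (SE 0.30, limma-trend adjusted p = 0.0222). That call was lost without KYSE150 control replicate 1 (limma-trend adjusted p = 0.0531), KYSE150 control replicate 3 (limma-trend adjusted p = 0.0657) or KYSE180 control replicate 1 (limma-trend adjusted p = 0.0924), and when genes with few reads were kept (limma-trend adjusted p = 0.0534).

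AFDN ran the other way. It averaged 6.62 ± 0.337 FPKM in KYSE180 controls and 11.1 ± 0.255 FPKM in KYSE150 controls, a log2 difference of -0.66 (SE 0.14, limma-trend adjusted p = 0.00192). NECTIN2 averaged 28.03 ± 4.80 FPKM in KYSE180 controls and 20.7 ± 1.33 FPKM in KYSE150 controls, and its log2 difference of 0.41 (SE 0.17) missed the threshold (limma-trend adjusted p = 0.0603). NECTIN2 passed it without shCDCA7 replicate 2 (limma-trend adjusted p = 0.0126), whose spread enters this fit, without KYSE180 control replicate 2 (limma-trend adjusted p = 0.0229) and with the GC trend removed (limma-trend adjusted p = 0.0489). The median log2 difference was 0.65 over the 4 genes and 0.07 over all genes.

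FPKM are scaled by a single deposited length per gene, such as 7701 bases for NECTIN1, 3502 for NECTIN4 and 13720 for AFDN. Shares and ratios between genes depend on these lengths, since the isoforms expressed were not measured. On that scale the nectins are set beside each other. Their summed level was 146 ± 6.77 FPKM in overexpressing KYSE180 cells, 126 ± 10.2 FPKM in KYSE180 controls, 70.5 ± 14.9 FPKM in shCDCA7 cells and 50.7 ± 2.55 FPKM in KYSE150 controls (SD, n = 3 each). NECTIN1 made up 68.4% ± 3.11 of that sum in overexpressing cells and 71.8% ± 4.91 in KYSE180 controls, and 34.5% ± 5.91 in shCDCA7 cells and 53.9% ± 0.850 in KYSE150 controls. NECTIN4 made up 19.4% ± 4.89 in shCDCA7 cells and 5.39% ± 0.359 in KYSE150 controls. In KYSE150 cells with the hairpin NECTIN2 (46.0% ± 1.94) thus led the summed FPKM, and NECTIN4 took a larger part of it. The sum per FPKM of AFDN was 24.0 ± 4.58 in overexpressing cells, 19.1 ± 2.17 in KYSE180 controls, 4.01 ± 1.41 in shCDCA7 cells and 4.59 ± 0.151 in KYSE150 controls. In the shCDCA7 libraries it was 4.96, 2.39 and 4.69, so without replicate 2 its mean of 4.82 lay above that of the controls. Without that library the summed nectin level was 79.05 FPKM and NECTIN4 made up 22.2% in shCDCA7 cells. KYSE180 thus had more nectin FPKM per FPKM of AFDN than KYSE150 in every library.

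**Figure D3:**
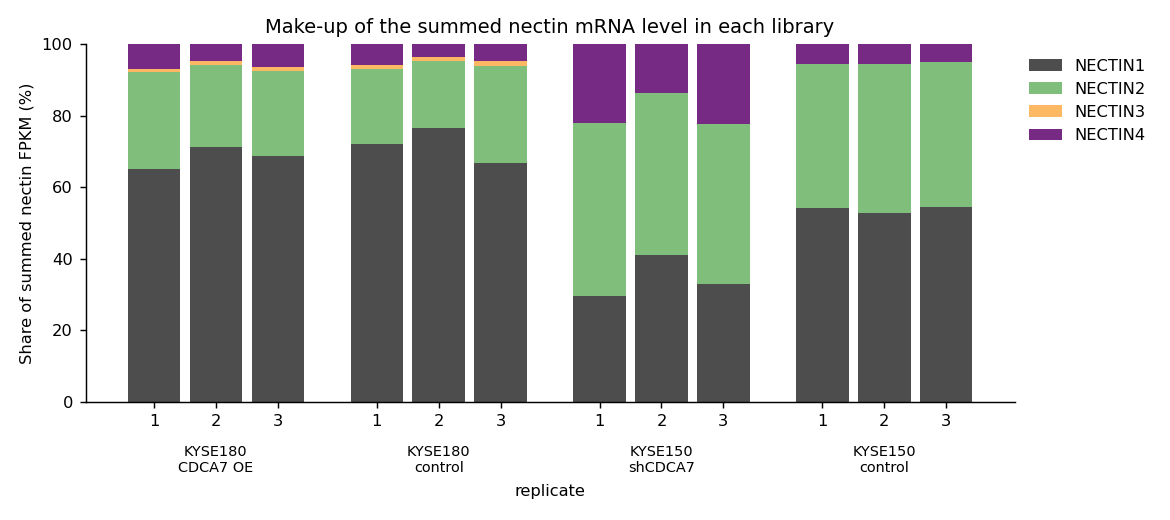
Share of each nectin in the summed nectin FPKM, in percent, by library and group. NECTIN1 leads in both KYSE180 groups and in KYSE150 controls, and NECTIN2 leads in shCDCA7 cells, where NECTIN4 averages 19.4%.

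NECTIN2 and NECTIN4 varied together across libraries. With the mean of each line subtracted from log2(FPKM + 1), their Pearson r was 0.92 over the 12 libraries, 0.82 over the 6 of KYSE180 and 0.97 over the 6 of KYSE150. Leaving out the 2 libraries farthest from the median of NECTIN2 gave 0.82, and leaving out shCDCA7 replicate 2 gave 0.93. The points share groups, library preparation and depth, and they hold the contrast that the family was chosen from, so these are descriptions. The other pairs lay between -0.56 (NECTIN1 with AFDN) and 0.57 (NECTIN4 with AFDN).

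**Figure D4:**
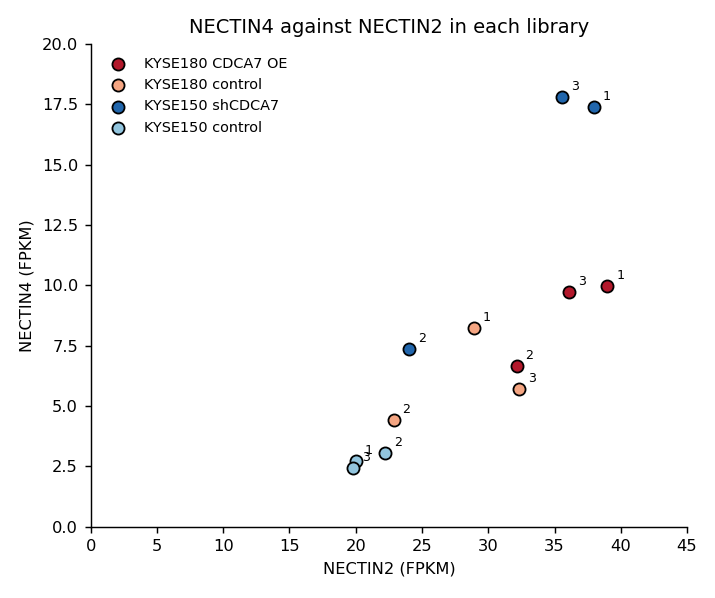
NECTIN4 (vertical axis, FPKM) against NECTIN2 (horizontal axis, FPKM); each point is a library, coloured by group and numbered by replicate. In KYSE150 the controls lie between 2.44 and 3.06 FPKM of NECTIN4, and shCDCA7 replicate 2 lies below the other shCDCA7 libraries.

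By the same measure, over 6993 genes averaging at least 5 FPKM, the genes most like NECTIN2 were SPINT1, which encodes a membrane inhibitor of serine proteases (r = 0.98), the lysosomal sialidase gene NEU1 (0.98) and MAFF, a small MAF transcription factor (0.97). NECTIN4 ran closest to KHDC4 (0.97), the histone gene HIST1H2BK (0.96) and the cytidine deaminase gene APOBEC3B (0.96). AFDN ran closest to HIF1A, the hypoxia-responsive transcription factor (0.98), the clathrin adaptor gene CLINT1 (0.98) and TP53BP2 (0.96). NECTIN1 ran closest to the organic anion transporter gene SLCO4A1 (0.91), the sulfhydryl oxidase gene QSOX2 (0.91) and RAD54L, a recombination factor (0.90). NECTIN3 was not compared, since it had no reads in KYSE150.

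Of 10 nectin-like proteins and immune receptors that bind nectins or their relatives, most belong to lymphocytes or nerve cells and were near 0 here. TIGIT, CADM3 and CRTAM had 0 reads in all 12 libraries, and CADM1 had 6, CD226 10, PVRIG 29, CD96 49 and CADM2 112 reads in all. Except in overexpressing KYSE180 cells, where CADM4 led, the highest mean FPKM was that of PVR, the poliovirus receptor and a partner of nectin-3. PVR averaged 13.0 ± 0.684 FPKM in overexpressing KYSE180 cells and 15.04 ± 2.39 FPKM in KYSE180 controls, and 29.5 ± 0.914 FPKM in shCDCA7 cells and 30.1 ± 0.815 FPKM in KYSE150 controls (SD, n = 3 each). Neither manipulation called it, and it was lower in KYSE180 controls than in KYSE150 controls, by a log2 difference of -0.96 (limma-trend adjusted p = 1.39e-05). CADM4 averaged 17.5 ± 2.18 FPKM in overexpressing cells and 12.2 ± 1.24 FPKM in KYSE180 controls, and 11.2 ± 5.74 FPKM in shCDCA7 cells and 9.01 ± 0.564 FPKM in KYSE150 controls. With every library kept, the fit of each line alone did not call it (limma-trend adjusted p = 0.0602 in KYSE180 and 0.820 in KYSE150). Without shCDCA7 replicate 2 it was called higher in shCDCA7 cells, with a log2 difference of 0.63 (limma-trend adjusted p = 0.000365), against 0.15 with it. Without that library CADM4 was also called higher in KYSE180 controls than in KYSE150 controls (limma-trend adjusted p = 0.00619). In KYSE180 it was called higher in overexpressing cells without control replicate 3 (limma-trend adjusted p = 0.0381) and with the GC trend removed (limma-trend adjusted p = 0.0423).

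Of 17 genes of the adherens junction and afadin's partners, 6 were called higher and 0 lower in shCDCA7 cells than in KYSE150 controls, with 19.9% of all genes called. The list's median log2 difference was 0.39, against 0.00 over all genes. This list, and that of nectin signalling and shedding below, were chosen with earlier results of these data known. Their counts, medians and adjusted p are therefore descriptions and no independent support. Vinculin (VCL), which links catenins to actin, averaged 40.3 ± 10.3 FPKM in shCDCA7 cells and 21.6 ± 1.10 FPKM in KYSE150 controls, a log2 difference of 0.84 (limma-trend adjusted p = 0.0216). P-cadherin (CDH3) averaged 108 ± 2.48 FPKM in shCDCA7 cells and 61.8 ± 2.17 FPKM in KYSE150 controls, a log2 difference of 0.80 (limma-trend adjusted p = 0.00304). The cadherin-binding catenin gene CTNND1 averaged 67.4 ± 11.1 FPKM in shCDCA7 cells and 39.4 ± 0.999 FPKM in KYSE150 controls, a log2 difference of 0.75 (limma-trend adjusted p = 0.0118). JUP, F11R and ACTN1 were the other genes called. E-cadherin (CDH1) averaged 93.6 ± 29.1 FPKM in shCDCA7 cells and 59.1 ± 1.51 FPKM in KYSE150 controls and was not called. The count of higher calls ran between 2 and 11 as single libraries were left out. It was 2 without KYSE150 control replicate 1, 2 or 3, when 3.85%, 2.93% and 4.91% of all genes passed. Without shCDCA7 replicate 2 it was 11, with 3 lower, when 55.9% of all genes passed. CDH1 was then among the calls, at a log2 difference of 0.37. With libraries scaled to their totals 3 were called higher, when 26.4% of all genes passed. The list's median was then 0.13, against -0.16 over all genes.

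In KYSE180, 2 of the 17 were called higher and 1 lower in overexpressing cells, with 9.08% of all genes called. The junctional adhesion gene F11R averaged 43.3 ± 9.56 FPKM in overexpressing cells and 25.1 ± 1.41 FPKM in KYSE180 controls, a log2 difference of 0.75 (limma-trend adjusted p = 0.0347). The polarity gene PARD3 averaged 25.7 ± 0.965 FPKM in overexpressing cells and 18.3 ± 1.10 FPKM in KYSE180 controls, a log2 difference of 0.47 (limma-trend adjusted p = 0.0378). PLEKHA7, whose product binds afadin and catenins, averaged 0.700 ± 0.0897 FPKM in overexpressing cells and 1.29 ± 0.177 FPKM in KYSE180 controls, a log2 difference of -0.43 (limma-trend adjusted p = 0.0440). Without KYSE180 control replicate 1 no gene of the list was called, with 0.48% of all genes called. The same held without overexpressing replicate 1, 2 or 3, with 0.00635%, 1.11% and 0.051% of all genes called.

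Between the control cells, 4 of the 17 were higher and 6 lower in KYSE180, where 58.0% of all genes were called. The plakoglobin gene JUP averaged 175 ± 7.91 FPKM in KYSE180 controls and 82.7 ± 3.26 FPKM in KYSE150 controls (log2 difference 1.07, limma-trend adjusted p = 6.56e-06), and CTNNA1, which encodes alpha-catenin, averaged 17.7 ± 1.82 FPKM in KYSE180 controls and 52.8 ± 1.02 FPKM in KYSE150 controls (log2 difference -1.53, limma-trend adjusted p = 3.13e-06).

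Of 13 genes of nectin signalling and shedding, 2 were called higher and 2 lower in shCDCA7 cells, where 19.9% of all genes were called. RAP1A, a small GTPase that binds afadin, averaged 18.7 ± 3.47 FPKM in shCDCA7 cells and 12.2 ± 0.496 FPKM in KYSE150 controls (log2 difference 0.56, limma-trend adjusted p = 0.0345). ADAM10, a sheddase of membrane proteins, averaged 11.2 ± 1.24 FPKM in shCDCA7 cells and 7.63 ± 0.126 FPKM in KYSE150 controls (log2 difference 0.49, limma-trend adjusted p = 0.0244). The exchange factor genes RAPGEF1 and VAV2 were lower in shCDCA7 cells, by log2 differences of -0.45 and -0.38 (limma-trend adjusted p = 0.0338 and 0.0264). As single libraries were left out, higher calls ran between 0 and 6 and lower calls between 0 and 5. The most came without shCDCA7 replicate 2, when 55.9% of all genes passed. None was called without KYSE150 control replicate 1, 2 or 3, when 3.85%, 2.93% and 4.91% of all genes passed. The same held without shCDCA7 replicate 3, with 10.8% of all genes called. RAPGEF1 and VAV2 were not called with the GC trend removed (limma-trend adjusted p = 0.233 and 0.212). Of 11 tested in KYSE180, none was called by limma-trend. Between controls, 1 was higher and 5 were lower in KYSE180, where 58.0% of all genes were called.

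**Figure D5:**
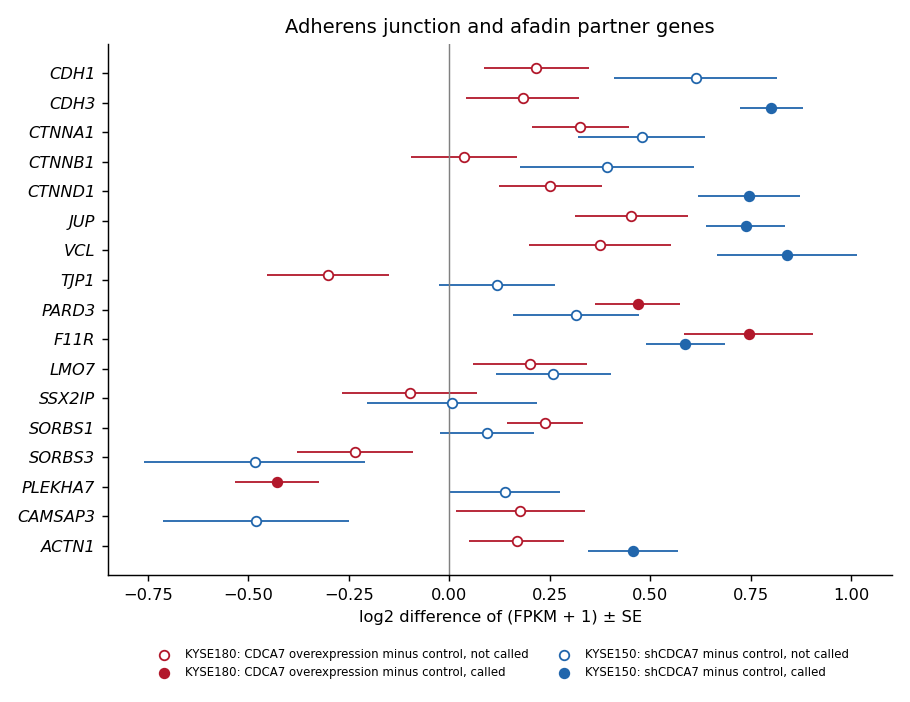
Log2 difference of the 17 adherens junction and afadin partner genes in each line, manipulated minus control, on the log2(FPKM + 1) scale; bars are standard errors, and filled points were called. Of these, 6 were called higher in KYSE150 and 2 higher and 1 lower in KYSE180.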

How the data were processed

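The deposited table holds FPKM for 12 libraries, 3 per group; HISAT2 2.0.5 and DESeq2 1.20.0 were used by the authors, per the submitters' processing notes. The notes name mm10, a mouse build, but the identifiers and positions of all 58735 genes match GENCODE 29 for human GRCh38. How reads were counted is not stated in the labels. Each deposited FPKM times gene length is a whole multiple of a library step for 100% of values (tolerance 0.01 reads), so reads were recovered.

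Tests used R 4.3.3 and limma 3.58.1: limma-trend on log2(FPKM + 1), two-sided, adjusted by Benjamini-Hochberg over all genes and called at 0.05. Genes entered a test with 10 or more reads, scaled to the median library, in 3 libraries and 15 in all. Each line was fitted alone, and the control and manipulation differences came from all 12 libraries. Log2 differences understate ratios of low genes. Genes were named as members of this family, the 3 most like each member, detected receptors, and up to 3 called genes per direction of a list, except where only some are shown. The members and lists were chosen with earlier results of these data known. Alternatives changed the filter, pseudocount, scaling, test, threshold, fit, replicate block and libraries; removal of the GC trend was added after the data were seen.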

Additional observations from a re-analysis of the deposited data

How the results depend on the processing

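Among the 5 genes, 2 uncalled values turned sign under an alternative. AFDN in KYSE180 was 0.045 without overexpressing replicate 1. The other was the value fitted to NECTIN3 for the difference of the manipulations, -0.19 in limma-voom. With no reads of NECTIN3 in KYSE150 that value measures no such difference, and nothing is read from it. All other values of the 5 genes kept their sign, which for the knockdown and the difference built on it is a description only. In KYSE180, 1447 genes were called, against 62 at an adjusted p under 0.01, 3 without a filter, 2893 in a fit of all 12 libraries and 603 with the replicate block, and 1 to 2317 as single libraries were left out. In KYSE150, 2854 were called, against 785 at 0.01, 1554 without a filter and 1001 with the block, and 410 to 7948 as libraries were left out. For the difference of the manipulations, 952 were called, against 189 at 0.01, 530 without a filter, 476 in limma-voom, and 269 to 1632 as libraries were left out. For the 5 genes, calls in the knockdown and in the difference of the manipulations are only counted, with nothing read from them. In the knockdown (2) they were 0 at 0.01, 1 with the block, and 3 with the upper quartile, the fit of all 12 libraries or the GC trend removed. They were 0 without each KYSE150 control, 3 without shCDCA7 replicate 2 and 2 without the other shCDCA7 libraries. In the difference (0) they were 1 with a filter of 50 reads, 2 with upper-quartile scaling, 1 with the block, 2 with the GC trend removed, and 0 to 2 as libraries were left out. The cause was not tested. Scaling to library totals gave 29.1% of calls as higher in KYSE180, against 51.2%, and 20.5% in KYSE150, against 50.5%, where it shifted the median of all genes to -0.16. Under it NECTIN4 stood at 1.72, AFDN at 0.42 and NECTIN2 at 0.35. Upper-quartile scaling gave 47.8% higher calls between controls, against 57.6%. For the difference of the manipulations the share was 62.3% with library totals and 38.2% with the upper quartile, against 51.6%. Deviations of same-numbered libraries correlated at -0.08 to 0.05 across genes, so no pairing by replicate number was seen. A pairing that moves few genes would not show in these values. With the block NECTIN2 was called between controls (limma-trend adjusted p = 0.0379). Of the 17 junction genes 0 were then called in KYSE180, with 3.78% of all genes called, and 3 higher in KYSE150, with 6.98%.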

Other observations

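NECTIN3 lies in a stretch of chromosome 3 where other genes were read in KYSE150. PHLDB2, 457 kb downstream, averaged 20.5 ± 1.86 FPKM in shCDCA7 cells and 13.9 ± 0.683 FPKM in KYSE150 controls (SD, n = 3 each), and ABHD10, 703 kb downstream, averaged 31.6 ± 4.66 FPKM in shCDCA7 cells and 22.9 ± 1.08 FPKM in KYSE150 controls. ZBED2, 317 kb downstream, averaged 0.817 ± 0.150 FPKM in shCDCA7 cells and 5.20 ± 0.484 FPKM in KYSE150 controls. The antisense gene NECTIN3-AS1 had 3, 2 and 2 reads in shCDCA7 cells and 4, 2 and 1 in KYSE150 controls, and 2, 0 and 0 reads in overexpressing KYSE180 cells and 0, 0 and 1 in KYSE180 controls. These neighbours were chosen after the zero of NECTIN3 was seen.

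CDC42, a small GTPase downstream of nectins that most cells use, is listed with 152 reads over all 12 libraries, too few to read as its level.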
